A study of Mus musculus with 12 samples.

Results

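The genes described here are 10 genes of cytotoxic lymphocytes: the granzymes Gzma, Gzmb, Gzmk and Gzmm, the pore protein gene Prf1, the granule membrane gene Nkg7, the chemokine Ccl5, the death ligand Fasl, and the NK receptor subunits Klrd1 and Klrk1. They were chosen by name, as the rows of the count table whose Ensembl identifiers carry these symbols in the GRCm38 annotation, and are 10 of 49315 rows. RNASeq was made of T cells prepared by magnetic negative selection from spleens of male mice, either wild type (WT) or lacking miR-214 in all tissues (miR-214-/-). The mice were 12 weeks old when infusion began. Osmotic minipumps delivered either sham buffer or angiotensin II (Ang II), the latter at a daily 490 ng/kg, over 14 days in each genotype. This gave 4 groups, WT sham, WT Ang II, miR-214-/- sham and miR-214-/- Ang II, each with 3 mice and 1 library per mouse. Deletion in every tissue means that a difference between the genotypes cannot be assigned to T cells from these groups.

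Cytotoxic CD8 T cells, NK cells and some other T cells kill a bound target by releasing granules. Perforin opens the target membrane and granzymes, a family of serine proteases, enter and cleave proteins inside. The same cells can also kill through Fas ligand on their surface, and receptors of the NK family, of which CD94 (Klrd1) and NKG2D (Klrk1) are members, set whether a target is attacked. In a resting spleen most T cells are naive and carry little of this programme, and the transcripts are known mainly from memory, effector and innate-like T cells and from NK cells.

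The microRNA that the miR-214-/- mice lack and the only match to its seed found among the 10 genes are shown first, since the genotypes differ in this microRNA. The mature miR-214-3p is encoded at chr1:162223438-162223459 on the plus strand of GRCm38 (RefSeq), and its seed, bases 2 to 8, is in capitals. The matching site CCTGCTG, in capitals in the second sequence, was found in the annotated 3′ UTR of 1 of the 10 genes, Klrk1, at position 718 of 2463 after the stop codon (chr6:129612062-129612068, minus strand). Of 13099 tested genes with an annotated 3′ UTR, 23.1% held the site, with a median UTR of 1134 bases against 67 to 2463 bases in the members. A match is a description of letters and not of binding.
miR-214-3p: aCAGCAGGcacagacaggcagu
Klrk1 site: gaaagcagCCTGCTGtctgggag

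The 250 bases upstream of the start of Gzma, Gzmk and Prf1 are given because Prf1 and Gzma had the smallest adjusted p-values of the members, and Gzma and Gzmk are direct neighbours that behaved differently across the libraries. They come from RefSeq (GRCm38.p6), which held 9 promoters of 8 of the 10 genes. The region of Gzma is chr13:113100982-113101231, minus strand, and that of Gzmk is chr13:113180966-113181215, minus strand, with no annotated exon in either, the second lying within the span of longer Gzmk transcripts. The region of Prf1 is chr10:61297586-61297835, plus strand, of which the last 3 bases are annotated as Prf1 exon. Capitals mark a core motif of RUNX factors (TGTGGT, or ACCACA on the other strand) and a core of T-box factors such as T-bet and Eomes (GGTGTG, or CACACC). Both families are known regulators of cytotoxic genes.
Gzma: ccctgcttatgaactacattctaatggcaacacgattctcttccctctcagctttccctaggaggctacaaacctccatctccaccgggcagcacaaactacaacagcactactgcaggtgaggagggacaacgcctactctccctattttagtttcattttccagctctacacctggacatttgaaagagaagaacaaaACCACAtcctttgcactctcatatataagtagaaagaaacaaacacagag
Gzmk: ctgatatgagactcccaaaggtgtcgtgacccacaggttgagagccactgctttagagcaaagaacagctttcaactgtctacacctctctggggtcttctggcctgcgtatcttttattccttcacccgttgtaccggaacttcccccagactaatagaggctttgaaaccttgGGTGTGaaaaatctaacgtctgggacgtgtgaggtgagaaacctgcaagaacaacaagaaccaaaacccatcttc
Prf1: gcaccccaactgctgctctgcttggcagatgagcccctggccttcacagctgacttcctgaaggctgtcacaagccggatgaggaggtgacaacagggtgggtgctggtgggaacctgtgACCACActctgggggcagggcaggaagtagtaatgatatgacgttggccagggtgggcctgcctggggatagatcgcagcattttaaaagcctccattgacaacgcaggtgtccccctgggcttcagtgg
The RUNX letters were in 6 of the 9 member promoters (Gzma, Gzmb, Gzmm, Klrk1, Nkg7 and Prf1) and in 14.0% of all 32851 RefSeq promoters searched over the same 250 bases. The T-box letters were in 4 of 9 (Fasl, Gzmk, Gzmm and Nkg7) and in 16.3% of all promoters. For Gzmm they lay in its second RefSeq promoter, chr10:79693576-79693825, inside the annotated gene. For Nkg7 they lay within 65 bases annotated as Nkg7 exon. The shown region of Gzma held the RUNX letters and not the T-box letters, and that of Gzmk the reverse. Another motif searched, the TATA box TATAAA on either strand, was in 0 of the 9 and in 12.4% of all.

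Total counts ranged from 21126874 to 29605988 per library, and the 10 genes together took 0.0329% to 0.0658% of them. All 12 T cell markers had counts in every library, but they took 0.506% to 0.540% of counts in WT sham and 0.356% to 0.402% in WT Ang II, against 0.475% to 0.506% in miR-214-/- sham and 0.422% to 0.501% in miR-214-/- Ang II. Other cells were present. The summed level of 11 red-cell precursor genes was 397 to 537 CPM (counts scaled to a common library size) in WT sham and 1245 to 5692 CPM in WT Ang II, and that of 9 neutrophil genes was 190 to 239 CPM and 1071 to 3234 CPM. In miR-214-/- mice the red-cell sum was 319 to 634 CPM in sham and 593 to 4628 CPM in Ang II, and the neutrophil sum 225 to 926 CPM and 542 to 2997 CPM. Of 5 NK-defining genes, which most T cells do not express, 4 had counts in every library, and the fifth was at 0 in at least 1. Because bulk libraries were made, fewer cells of a type and less RNA per cell cannot be told apart in any value below.

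All 10 genes had counts in every library and passed the filter on low counts in each comparison. Levels are CPM scaled by TMM over the 12 libraries, and levels of different genes are compared as CPM per kilobase of annotated exon. On that length-corrected scale Ccl5 was highest, with a median of 136 CPM per kb over the 12 libraries, followed by Nkg7 (127), Gzma (44.7), Klrd1 (41.7) and Prf1 (30.3). Gzmk (11.7), Gzmb (10.5), Fasl (5.59), Klrk1 (4.84) and Gzmm (2.81) followed. The length merges all annotated exons of a gene, 7183 bases for Klrk1 against 914 to 2584 bases for the other members. The low place of Klrk1 therefore depends on the length used. In CPM without it, Klrk1 (25.2 to 45.1) lay above Gzmk (8.09 to 24.9). Of the 9 pairs of neighbours in this order only Prf1 (18.1 to 40.7 CPM per kb) and Gzmk (5.83 to 17.9 CPM per kb) had ranges that did not overlap, and these nearly touched. The spread over libraries differed between the genes: the highest CPM was 5.19 times the lowest for Gzmm, 4.51 times for Gzma and 3.15 times for Ccl5, but 1.39 times for Fasl. Gzmm also had the fewest reads, 47 to 227 per library, so it was the least precisely counted member.

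**Figure D1:**
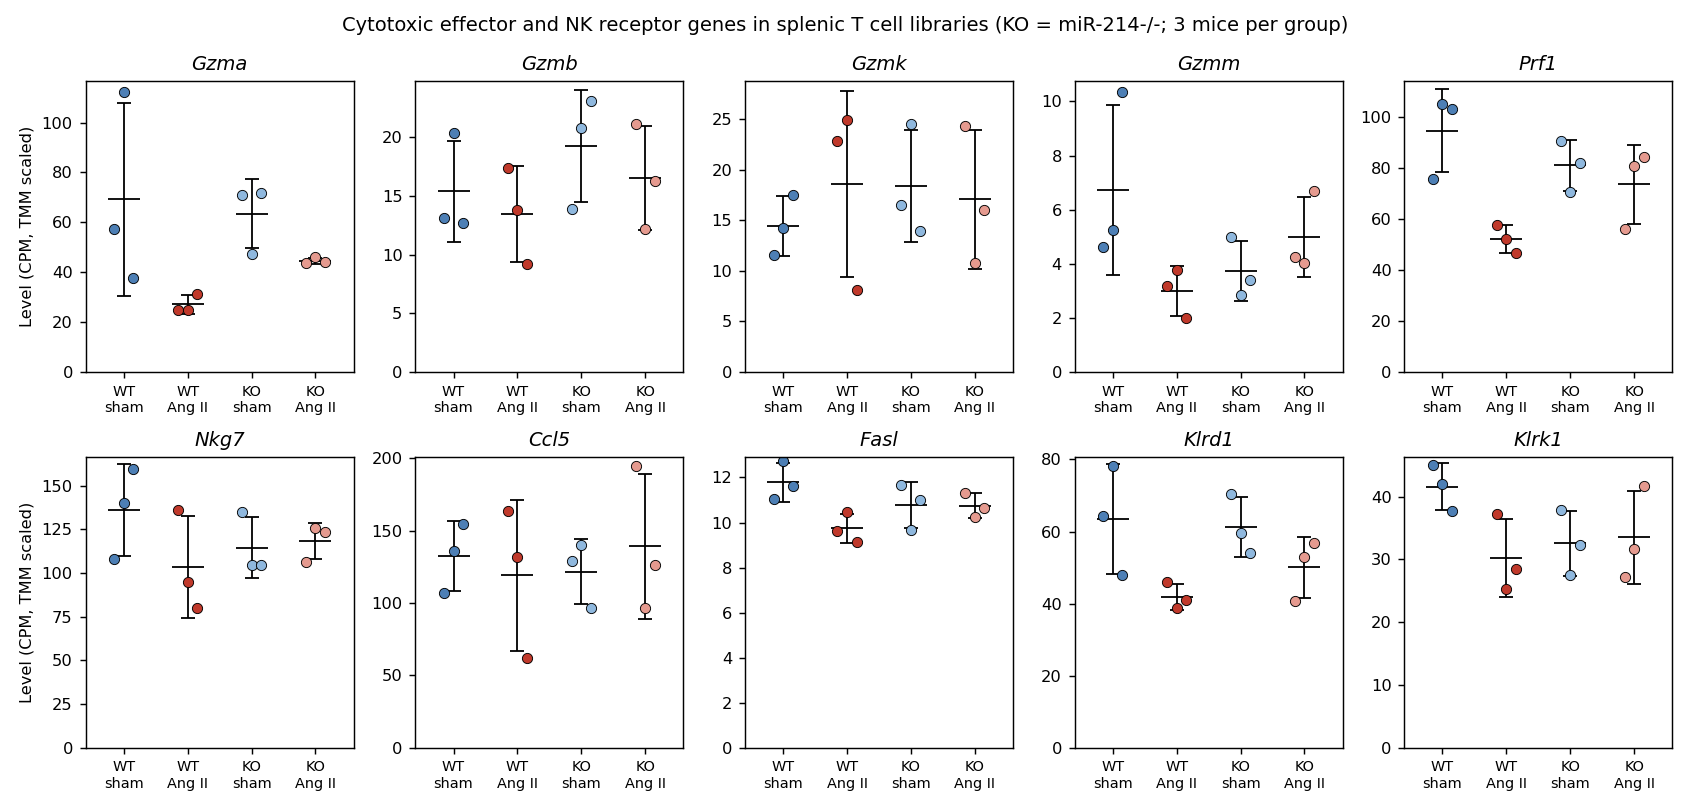
Level of each of the 10 genes in every library (points, CPM scaled by TMM, axes from 0) with the mean and SD of the 3 mice per group (bars); KO stands for miR-214-/-. The 3 WT Ang II libraries lie below all 3 WT sham libraries for Gzma, Gzmm, Prf1, Fasl, Klrd1 and, narrowly, Klrk1, and the groups overlap for the other 4 genes.

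The first question was how Ang II changed these genes in WT T cells. Gzma fell, Prf1 was lower by a smaller and more regular amount, and Gzmm and Klrd1 were lower without passing the adjusted test. Gzmb, Gzmk and Ccl5 showed no uniform difference. Calls required both an absolute log2 fold change over 1 and, in edgeR's quasi-likelihood test, an adjusted p under 0.05. By this rule 1 of the 10 genes, Gzma, was called, where 7.3% of the 16012 genes tested were called in either direction and 0.294% were called lower. At an adjusted p under 0.05 alone, Gzma and Prf1 passed, 2 of 10, where 18.8% of all genes passed in either direction and 7.06% passed as lower. The log2 fold change was negative for 9 of 10 genes, with a median of -0.40, where 51.6% of all genes were negative with a median of -0.02. When counts were scaled to the 12 T cell markers in place of TMM, the direction turned for several members, with 4 lower and 6 higher and a median of 0.09. This scaling moved the median of all genes to 0.49. It shifts all genes by nearly the same amount, so it cannot test whether the members differ from all genes. The median of the 12 T cell markers themselves was -0.50 with TMM.

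Gzma, which encodes granzyme A, a trypsin-like protease, lies at chr13:113093825-113100981 (ENSMUSG00000023132). Its level was 57.5, 112 and 37.9 CPM in the WT sham mice and 24.9, 25.0 and 31.3 CPM in the WT Ang II mice. The groups did not overlap, and the WT sham mice differed more among themselves than the WT Ang II mice did. The means were 69.2 ± 38.5 and 27.1 ± 3.69 CPM (SD, n = 3), a log2 fold change of -1.33 (SE 0.37, 95% interval -2.21 to -0.45, adjusted p = 0.0487, edgeR). This call was marginal: without WT sham replicate 2, the library with 112 CPM, the log2 fold change was -0.79 with an adjusted p of 0.0691. When each library was omitted in turn, 1 of 6 fits kept an adjusted p under 0.05 and all 6 kept a negative log2 fold change. Scaled to T cell markers it was -0.82 (adjusted p = 0.0946).

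Prf1, which encodes perforin (chr10:61297833-61304680, ENSMUSG00000037202), was measured at 75.8, 105 and 103 CPM in WT sham and at 57.7, 52.2 and 46.7 CPM in WT Ang II. The groups were separate, and the mice differed more within WT sham (SD 16.3 CPM) than within WT Ang II (SD 5.49 CPM). Its log2 fold change of -0.84 (SE 0.14, 95% interval -1.17 to -0.51) had an adjusted p of 0.0105 in edgeR, the smallest of the 10 genes, but was under the fold threshold. The adjusted p was under 0.05 in all 15 alternative fits of this comparison, with log2 fold changes between -0.98 and -0.33, the last being the value scaled to T cell markers (adjusted p = 0.0357).

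Gzmm encodes granzyme M, a granzyme known from NK cells and innate-like T cells (chr10:79689020-79695261, ENSMUSG00000054206). Its levels were low, at 4.62, 5.24 and 10.3 CPM in WT sham and 3.20, 3.78 and 1.99 CPM in WT Ang II. The groups did not overlap, and 1 sham library, at 10.3 CPM, stood above the other 11 libraries of the study. The log2 fold change was -1.14 (SE 0.37, 95% interval -2.02 to -0.27, adjusted p = 0.0729, edgeR), and DESeq2, which called 8.43% of all genes in this comparison, gave an adjusted p of 0.0121. Without WT sham replicate 3, the library at 10.3 CPM, it was -0.71 (adjusted p = 0.173, edgeR), and scaled to T cell markers it was -0.64 (adjusted p = 0.146).

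Klrd1 encodes CD94, the partner chain of the NKG2 receptors (chr6:129591782-129598775, ENSMUSG00000030165). It was at 64.4, 78.3 and 47.9 CPM in WT sham and at 45.9, 38.8 and 40.9 CPM in WT Ang II, without overlap. The log2 fold change was -0.58 (SE 0.18, adjusted p = 0.0631 in edgeR and 0.00972 in DESeq2), and -0.08 when scaled to T cell markers. Klrk1 encodes NKG2D, an activating receptor for stress-induced ligands (chr6:129610323-129623864, ENSMUSG00000030149). Its WT values were 45.1, 42.1 and 37.7 CPM in sham and 37.2, 25.2 and 28.4 CPM in Ang II. The highest Ang II library lay just under the lowest sham library, and the log2 fold change was -0.43 (SE 0.16, adjusted p = 0.102, edgeR). Klrk1, the gene with the miR-214-3p seed match shown above, was not called in WT.

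Nkg7 encodes a membrane protein of cytotoxic granules needed for their release (chr7:43437073-43438249, ENSMUSG00000004612). It was at 108, 140 and 160 CPM in WT sham and at 136, 94.9 and 79.8 CPM in WT Ang II, with overlap, and a log2 fold change of -0.37 (95% interval -0.88 to 0.14, adjusted p = 0.265). Fasl encodes the ligand of the death receptor Fas (chr1:161780689-161788495, ENSMUSG00000000817). It was the steadiest member, at 11.0, 12.7 and 11.6 CPM in WT sham and 9.63, 10.4 and 9.15 CPM in WT Ang II. The groups were separate but the log2 fold change was only -0.25 (95% interval -0.56 to 0.05, adjusted p = 0.205). Scaled to T cell markers the log2 fold change of Fasl was 0.25 (adjusted p = 0.203, edgeR). Relative to T cell marker counts the WT groups were again separate, with Ang II above sham. On the same scaling Nkg7 was at 0.13 and Klrk1 at 0.06.

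The remaining genes split the 3 WT Ang II mice. Gzmk encodes granzyme K, a granzyme known from a subset of memory CD8 T cells (chr13:113171608-113225908, ENSMUSG00000042385). It was at 11.6, 14.2 and 17.5 CPM in WT sham and at 22.8, 24.9 and 8.09 CPM in WT Ang II. Ang II replicates 1 and 2 were therefore above all 3 sham libraries and replicate 3 below them, and the log2 fold change of 0.39 had a 95% interval from -0.54 to 1.31 (adjusted p = 0.517). Ccl5, a chemokine stored by memory CD8 T cells and NK cells (chr11:83525778-83530518, ENSMUSG00000035042), was at 107, 136 and 155 CPM in WT sham and at 163, 132 and 61.8 CPM in WT Ang II. Replicate 3 was again the lowest of the 6 libraries, and the interval of the log2 fold change ran from -0.90 to 0.63 around -0.14. Gzmb encodes granzyme B, the main caspase-activating granzyme (chr14:56258838-56262260, ENSMUSG00000015437). It was at 13.1, 20.3 and 12.7 CPM in WT sham and at 17.4, 13.8 and 9.19 CPM in WT Ang II, a log2 fold change of -0.17 (95% interval -0.83 to 0.49, adjusted p = 0.693). These intervals hold both a rise and a fall, so no change of these 3 genes was detected in either direction with 3 mice per group. For single values an exact permutation test of 3 against 3 cannot give a two-sided p under 0.1.

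Counted over the whole set in TMM-scaled CPM, the WT Ang II libraries lay below all WT sham libraries for 6 of 10 genes (Gzma, Gzmm, Prf1, Fasl, Klrd1 and Klrk1), where 22% of all genes tested did so. WT Ang II replicate 3 was the lowest of its group for 7 of the 10 genes but the highest of its group for Gzma. WT sham replicate 2 was the highest of its group for 5 genes, among them Gzma and Klrd1, which NK cells express strongly. The separation depended on the scaling. Relative to T cell marker counts, of the 6 genes only Prf1 still lay wholly below WT sham. Fasl then lay wholly above it, and Gzma, Gzmm, Klrd1 and Klrk1 overlapped. The share of all genes on that scale was not computed.

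The same test was then made in miR-214-/- mice. No member was called, and no gene at all was called by edgeR (0% of 15937), where 12.2% had an unadjusted p under 0.05 and DESeq2 called 0.393%. Of the members, 1 (Gzma) had an unadjusted p under 0.05 and DESeq2 called 0. Log2 fold changes were negative for 5 and positive for 5 genes, where 45.5% of all genes were negative, with a median of -0.05 against 0.03 for all genes. Gzma was at 71.0, 47.4 and 71.9 CPM in miR-214-/- sham and at 43.7, 45.9 and 44.0 CPM in miR-214-/- Ang II. The groups did not overlap, as for 1 of the 10 members and for 10.5% of all genes tested. The Ang II mice were nearly equal, and the log2 fold change was -0.51 (SE 0.16, 95% interval -0.88 to -0.13) with an adjusted p of 0.320.

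The other members moved less or not in one direction in miR-214-/- mice. Prf1 was at 90.6, 70.4 and 82.1 CPM in sham and at 56.0, 80.8 and 84.4 CPM in Ang II, so 1 of 3 Ang II libraries was low and the other two lay within the sham range. Its log2 fold change was -0.13 (95% interval -0.52 to 0.26). Gzmm was at 4.99, 2.83 and 3.40 CPM in sham and 4.26, 4.02 and 6.68 CPM in Ang II, a log2 fold change of 0.42 (95% interval -0.29 to 1.12). Klrd1 was at 70.4, 59.5 and 54.1 CPM in sham and 40.6, 52.8 and 56.7 CPM in Ang II, with -0.29 (95% interval -0.64 to 0.06). For Gzmk, Ccl5 and Gzmb the highest miR-214-/- Ang II library was replicate 1, at 24.4, 194 and 21.1 CPM, which was also the lowest of its group for Gzma, Prf1, Nkg7, Klrd1 and Klrk1. The other two replicates had 10.8 and 16.1 CPM of Gzmk, 96.4 and 126 CPM of Ccl5, and 12.2 and 16.2 CPM of Gzmb.

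**Figure D2:**
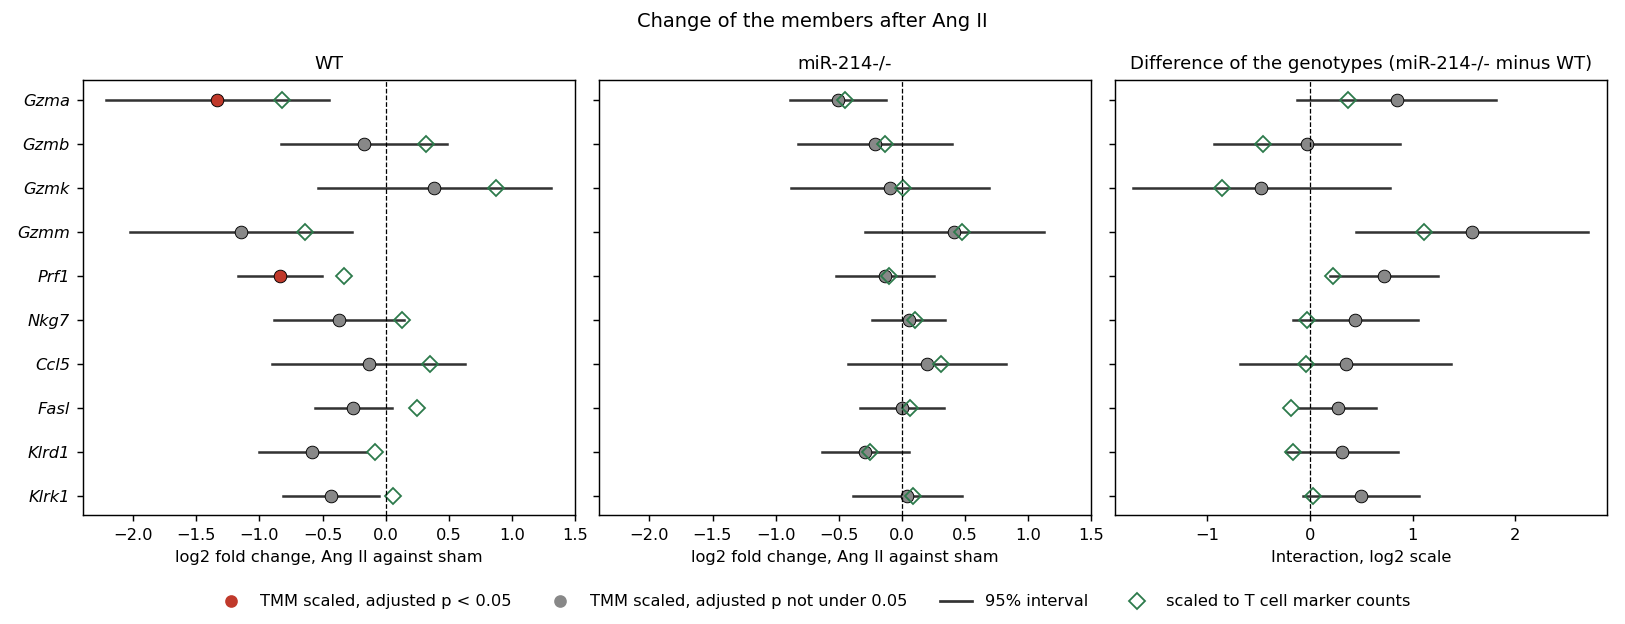
Log2 fold change of Ang II against sham for the 10 genes in WT and miR-214-/- mice on the same axis, and the difference of the 2 (interaction, own axis), with 95% intervals (lines); circles are TMM scaled, red where the adjusted p was under 0.05, and diamonds are scaled to T cell marker counts. Gzma (-1.33) and Prf1 (-0.84) pass in WT, no gene passes in the other panels, and the diamonds lie to the right of the circles in WT.

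Whether Ang II acted differently in the genotypes was tested by the interaction over all 12 libraries, called at an adjusted p under 0.05. By edgeR, 0 members passed, where 0.00596% of 16770 genes passed and 14.8% had an unadjusted p under 0.05. Among the members 2 had an unadjusted p under 0.05, Gzmm and Prf1, and DESeq2 called 0 members and 3.22% of all genes. The interaction, the log2 fold change in miR-214-/- minus that in WT, was 1.58 for Gzmm (SE 0.52, 95% interval 0.44 to 2.71, adjusted p = 0.237) and 0.72 for Prf1 (SE 0.24, 95% interval 0.19 to 1.25, adjusted p = 0.244). For Gzma it was 0.84 (95% interval -0.12 to 1.81, adjusted p = 0.384). It was negative for 2 of 10 genes, where 48.5% of all genes were negative, and had a median of 0.39, but when scaled to T cell markers it was negative for 6 of 10 with a median of -0.03, while the median of all genes moved from 0.01 to -0.46. When each library was left out in turn, 0 to 919 of all genes passed, and Prf1 passed in 1 of 12 fits. That fit left out miR-214-/- Ang II replicate 1, whose Prf1 level was the low one, so that its omission raises the interaction. The interaction of Prf1 was then 0.89 (adjusted p = 0.0353, edgeR). T cell markers took 0.422% of counts in that library against 0.501% and 0.496% in the other two of its group, and scaled to them over all 12 libraries the interaction of Prf1 was 0.23 (adjusted p = 0.304). The part of the T cell share in this value was not tested. A smaller response of these genes in miR-214-/- mice was therefore not called by the test over all 12 libraries, and the intervals allow a sizeable difference as well as a small one.

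Between the genotypes in sham, 0 members were called by edgeR and by DESeq2, where edgeR called 0.0189% of 15913 genes and DESeq2 0.312%. Unadjusted p-values under 0.05, which 6.67% of all genes had, were found for Klrk1, with a log2 difference of -0.36 in miR-214-/- against WT (95% interval -0.66 to -0.06, adjusted p = 0.701), and for Gzmm, with -0.85 (95% interval -1.68 to -0.02, adjusted p = 0.740). Without WT sham replicate 3, its highest library, the difference of Gzmm was -0.40. The sham libraries of the genotypes overlapped for all 10 genes, where miR-214-/- lay wholly above WT for 5.39% and wholly below for 4.79% of all genes. Klrk1 was at 37.9, 27.5 and 32.3 CPM in miR-214-/- sham against 45.1, 42.1 and 37.7 CPM in WT sham, and scaled to T cell markers its log2 difference was -0.23 (adjusted p = 0.486). Between the genotypes in Ang II, 0 members were called by either tool, where edgeR called 0% of 16215 genes and DESeq2 0.131%, and 8.56% had an unadjusted p under 0.05. Of the members, 2 had one, Gzma and Prf1. The log2 difference of miR-214-/- Ang II against WT Ang II was 0.72 for Gzma (SE 0.12, 95% interval 0.43 to 1.01, adjusted p = 0.569 in edgeR and 0.00447 in DESeq2), and 0.50 for Prf1 (95% interval 0.11 to 0.90, adjusted p = 0.569 in edgeR). Scaled to T cell markers these were 0.37 (adjusted p = 0.253) and 0.14 (adjusted p = 0.434). The scaling turned most of the set, from 9 of 10 members positive with a median of 0.25 to 6 of 10 negative with a median of -0.06, while the median of all genes went from 0.00 to -0.33. The miR-214-/- Ang II libraries lay above all WT Ang II libraries for 2 of 10 genes, Gzma and Gzmm, where 8.01% of all genes tested did so.

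In an additive fit that gives 1 Ang II effect for both genotypes, Gzma and Klrd1 passed an adjusted p under 0.05, 2 of 10 members, where 15.9% of 16770 genes passed and 7.72% passed as lower. The Ang II effect was -0.93 for Gzma (SE 0.25, adjusted p = 0.0287) and -0.45 for Klrd1 (SE 0.13, adjusted p = 0.0374), followed by Prf1 at -0.50 (adjusted p = 0.0513). Scaled to T cell markers these were -0.63, -0.17 and -0.22, of which none passed, where the median of all genes was 0.29. For genotype, 0 members passed in edgeR or DESeq2 and 0 had an unadjusted p under 0.05, where 0% of all genes passed in edgeR and 1.84% had such a p.

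The members did not vary as a single block over the 12 libraries. The strongest pairs were Gzmk with Ccl5 (Pearson r = 0.86 of log2 CPM over 12 libraries) and Gzma with Klrd1 (r = 0.853). Prf1 went with Klrd1 (r = 0.771) and Nkg7 (r = 0.769). Gzma and Gzmk had r = -0.272, although these genes are neighbours on chromosome 13, 70.6 kb apart with 0 protein-coding genes between them. Klrd1 and Klrk1, 11.5 kb apart in the NK gene complex on chromosome 6 with 0 protein-coding genes between them, had r = 0.688. These values describe the libraries, which share depth, scaling and group effects.

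**Figure D3:**
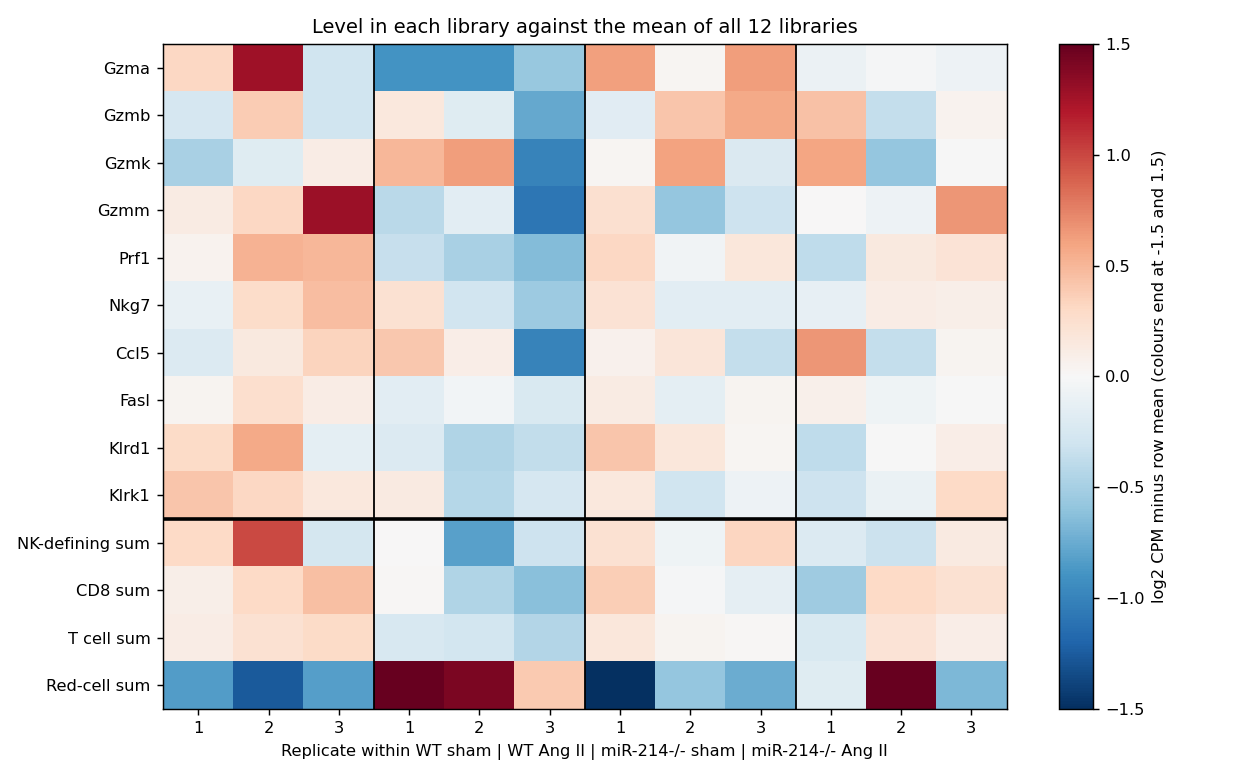
Log2 CPM of each gene in each library minus its mean over the 12 libraries (colour, ending at -1.5 and 1.5), with the summed levels of marker lists below the thick line; vertical lines part the 4 groups of 3 replicates. Gzmk and Ccl5 are both high in WT Ang II replicate 1 and miR-214-/- Ang II replicate 1, where Gzma is not, both are lowest in WT Ang II replicate 3, and Gzma follows the NK-defining sum in WT sham.

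Some of the variation of Gzma went along with the NK-defining genes (Ncr1, Klrb1c, Klre1, Klra4 and Klra8). Their summed level ranged from 35.9 to 86.0 CPM in WT sham, from 24.5 to 43.4 in WT Ang II, while the miR-214-/- mice had 41.4 to 54.2 CPM in sham and 34.5 to 47.6 CPM after Ang II. WT sham replicate 2 had the highest sum, 86.0 CPM, and the highest Gzma, 112 CPM. Relative to 100 counts of these genes, Gzma had 108, 131 and 106 counts in WT sham and 57.3, 102 and 89.6 in WT Ang II. In the miR-214-/- mice the ratio was 140, 115 and 133 for sham and 116, 133 and 92.4 for Ang II. The WT Ang II ratios were narrowly below all WT sham ratios, at 102 against 106 where they came nearest, while the miR-214-/- groups overlapped. For Prf1 the same ratio overlapped in WT, at 142.5, 122.2 and 287.1 in sham and 132.9, 213.0 and 133.4 in Ang II. These ratios were not tested, and the share of all genes with such a separation was not computed. In WT, Ncr1, the NKp46 receptor gene, had a log2 fold change of -0.72 (adjusted p = 0.189), Klrb1c, the NK1.1 antigen gene, -0.80 (adjusted p = 0.185) and Klre1, an NK receptor, -0.75 (adjusted p = 0.157). The CD8 genes Cd8a (-0.56, adjusted p = 0.0595) and Cd8b1 (-0.62, adjusted p = 0.0564) were lower by similar amounts, with summed levels of 818 to 1052 CPM in WT sham and 501 to 781 CPM in WT Ang II. All 12 T cell markers had an adjusted p under 0.05 and a negative log2 fold change in WT, with a median of -0.50. A wider list of 13 NK cell genes, which includes Gzma and Prf1, was less uniform than the NK-defining genes. Of its 10 genes tested in WT, 7 were lower and 3 higher after Ang II. Its summed level was 313 to 452 CPM in WT sham and 232 to 400 CPM in WT Ang II, with overlap. The part of NK cells, CD8 T cells and the T cell share in the differences of the members was not tested.

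**Figure D4:**
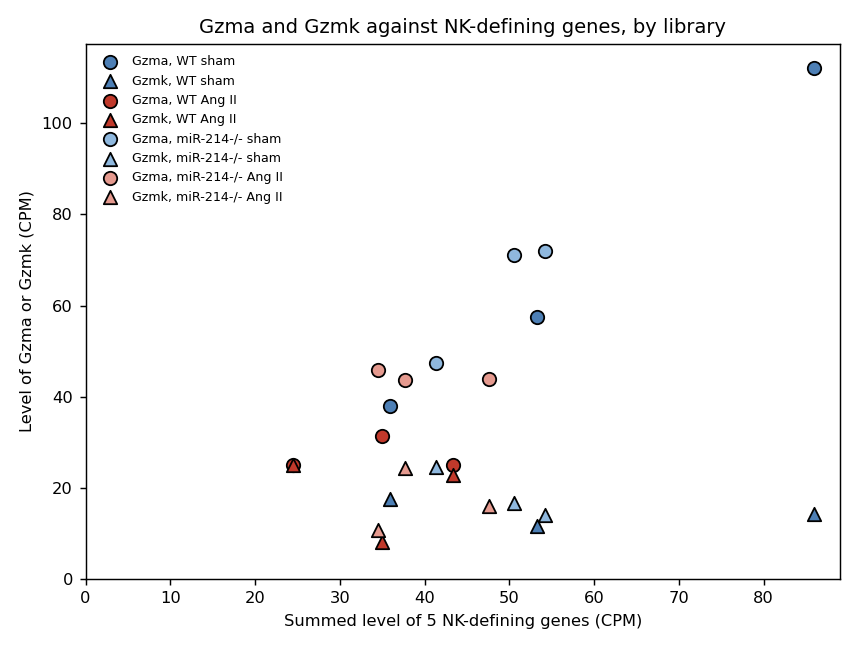
Level of Gzma (circles) and Gzmk (triangles) in each of the 12 libraries against the summed level of 5 NK-defining genes, both in CPM with axes from 0. WT sham replicate 2 stands apart at 86.0 and 112 CPM for Gzma, the 3 WT Ang II libraries lie lowest for Gzma, and Gzmk is not highest where the NK-defining sum is.

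The genes with the profile most like the mean of the 10 members over the 12 libraries were Tbx21 (root-mean-square difference of z-scores 0.358, r = 0.936), Rnf166, Zfp287, Rabggta and Rinl (up to 0.419). Tbx21 encodes T-bet, a T-box factor of type 1 and cytotoxic lymphocytes. For Gzma alone they were S1pr5 (0.32, r = 0.949), Rdh5, Mutyh, Adamts14 and Trdv5 (up to 0.483). S1pr5 encodes a sphingosine-phosphate receptor for egress of NK cells and effector T cells. It was at 8.29 to 20.0 CPM in WT sham and 5.63 to 6.74 CPM in WT Ang II, with a log2 fold change of -1.06 (SE 0.33, adjusted p = 0.0665) in WT and a called additive effect of -0.79 (adjusted p = 0.0351).

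Other genes of the cytotoxic pathway were read from lists, of which the counts below are at an adjusted p under 0.05. Of 6 other granzymes, Gzmd, Gzme and Gzmg had 0 counts in all libraries, Gzmf and Gzmn had 1 count in total each and Gzmc had 2 to 12 per library, so 0 were tested in WT. Of 11 tested genes of granule handling, 3 rose and 0 fell in WT after Ang II, where 11.7% of all genes tested rose by this rule and 7.06% fell. They were Stx11, a syntaxin needed for granule fusion (0.93, SE 0.12, adjusted p = 0.00569), Lamp1, a membrane protein of lysosomes and granules (0.50, SE 0.10, adjusted p = 0.0191), and Vamp8, a vesicle fusion protein (0.35, SE 0.08, adjusted p = 0.0295), all expressed in myeloid cells too. Stx11 was at 15.9 to 18.8 CPM in WT sham and 28.8 to 36.4 CPM in WT Ang II. Ctsc, the cathepsin that activates granzymes, had 0.57 (adjusted p = 0.147). The neutrophil marker sums beside these values were 190 to 239 CPM in WT sham and 1071 to 3234 CPM in WT Ang II. The part of neutrophils in these rises was not tested.

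Among 25 tested NK receptors and adaptors outside the set, 0 rose and 1 fell in WT, against 11.7% and 7.06% of all genes tested. The gene was Hcst, which encodes DAP10, an adaptor through which NKG2D signals (-0.57, SE 0.09, adjusted p = 0.00801), and it was at 58.5 to 64.8 CPM in WT sham and 36.7 to 43.4 CPM in WT Ang II. Scaled to T cell markers it was -0.07 and did not pass. Tyrobp, another adaptor gene of the list, did not fall. It was at 24.7 to 41.0 CPM in WT sham and 36.3 to 113 CPM in WT Ang II, with overlap, and did not pass. The median of the 25 genes was -0.41, and 0.07 with T cell marker scaling. The largest values, Klra17 (1.33, adjusted p = 0.223) and Klra2 (1.10, adjusted p = 0.220), did not pass, were counted at under 8 CPM, and belong to a family with near-identical copies, so their counts are uncertain.

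Of 18 tested transcription factors and cytokine receptors of effector cells, 0 rose and 3 fell in WT, against the same 11.7% and 7.06% of all genes. They were Id3 (-0.82, adjusted p = 0.0159) and Tcf7 (-0.50, adjusted p = 0.0107), factors of naive and memory precursor T cells, and Il18r1, a chain of the interleukin-18 receptor (-0.37, adjusted p = 0.0208). None of these 3 passed with T cell marker scaling. Zeb2, a factor of terminal effector cells that macrophages also express, had 1.08 (adjusted p = 0.0606) and passed in the additive fit at 0.73 (adjusted p = 0.0413). Tbx21 had -0.52 (adjusted p = 0.134). Of 8 effector cytokines and chemokines, 0 passed in either direction; the largest values were -0.52 for Ifng, the type 1 cytokine interferon gamma (adjusted p = 0.0999), and 0.49 for Il10, a regulatory cytokine (adjusted p = 0.483).

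Of 10 tested partners of the members, 1 rose and 2 fell, against the same shares of all genes. Ccr1, a receptor of Ccl5 that myeloid cells also carry, rose from 2.05 to 5.44 CPM in WT sham to 12.1 to 30.1 CPM in WT Ang II, a log2 fold change of 2.44 (SE 0.45, adjusted p = 0.0144). Its interaction was -1.52 (adjusted p = 0.283), and Ccl5 itself was not called in any comparison. H60b, a ligand of NKG2D, fell by 0.88 on the log2 scale (SE 0.17, adjusted p = 0.0181), from 14.7 to 17.8 CPM in sham to 6.75 to 9.56 CPM in Ang II. Another ligand of NKG2D, Ulbp1, had 1.30 (adjusted p = 0.148), so the 2 NKG2D ligands had opposite signs. H2-Q7, a nonclassical class I gene, fell by 0.62 (adjusted p = 0.0107). Neither fall passed with T cell marker scaling, at -0.37 and -0.12, where Ccr1 was at 2.93 and passed. Of 12 homing and memory genes, 1 rose and 4 fell, where 11.7% of all genes tested rose and 7.06% fell. Cd44, an adhesion molecule raised on memory cells, rose by 0.71 (adjusted p = 0.00763). Ccr7 (-0.65), S1pr1 (-0.64) and Il7r (-0.52), which mark naive and recirculating T cells, were 3 of the 4 that fell. The highest adjusted p of these 3 was 0.0290. None of these 3 passed with T cell marker scaling. The fourth gene that fell is not named here. Over the 12 genes the median log2 fold change was -0.23, and 0.26 with T cell marker scaling. In miR-214-/- mice, in both comparisons of the genotypes, for the interaction and for the genotype effect, 0 genes of these 7 lists passed in edgeR. At most 0.0251% of all genes tested passed in any of these comparisons. With so few passing, the 0 says little about the lists.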

How the data were processed

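Raw read counts per gene were made and deposited by the authors, who trimmed poly(A)-selected paired reads with Trimmomatic, mapped them to GRCm38 with STAR and counted unique exonic reads with featureCounts (Subread 1.5.2); the strand setting of the counting is not given in the sources used here. All 12 columns were used, and 48970 of 49315 identifiers matched GENCODE M21. The 345 others held 0.0705% of counts. Of 12 pairs of libraries within a group, 0 were identical and each differed beyond sampling noise (chi-square at least 10.7 per degree of freedom).

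Counts were fitted over all genes with edgeR 4.0.16 in R 4.3.3 (filterByExpr, TMM, quasi-likelihood test, Benjamini-Hochberg adjustment), and with DESeq2 1.42.0 as an alternative, together with other scalings, filters, a replicate block and leaving out libraries. Calls needed an adjusted p under 0.05 and, between 2 groups, an absolute log2 fold change over 1. The fits were tested on simulated data. Likeness used genes above a mean log2 CPM of 1, with 0.5 added to CPM before log2.

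The 10 members were all named. From each list, genes called in any comparison and the 2 with the largest log2 fold change in WT were named. Vamp8, Hcst, Tyrobp, Tcf7, Il18r1, Ccr7, S1pr1, Cd8a, Cd8b1, the NK-defining genes and the untested granzymes were named after their values were seen. The members and lists were chosen with earlier results of these data known.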

Additional observations from a re-analysis of the deposited data

How the results depend on the processing

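For Ang II against sham in WT, the 1 called member became 2 with DESeq2 (Gzma and Gzmm), 2 in 1 fit over all 12 libraries, 2 by adjusted p alone, and 0 with library totals, T cell marker scaling or the replicate block. Leaving out a library gave 0 to 1, with 0 in 5 of 6 cases. For the Ang II main effect the 2 called members became 0 with T cell marker scaling and with the replicate block, and 0 to 3 when a library was left out. For the interaction, 0 became 1 (Prf1) without miR-214-/- Ang II replicate 1, so the range was 0 to 1. Counts of called members in the other comparisons stayed at 0 in every fit. Over all genes, calls went from 1169 to 2589 in WT with T cell marker scaling and to 3009 by adjusted p alone, with 564 to 1338 when a library was left out. In miR-214-/- they went from 0 to 51 with DESeq2 and 3 without a filter, with 0 to 1 when a library was left out. Between the sham groups they went from 3 to 47 with DESeq2, 9 without a filter and 0 with the replicate block or 1 fit over all 12 libraries, with 0 to 30 when a library was left out. Between the Ang II groups they went from 0 to 23 with DESeq2, for the interaction from 1 to 444 with DESeq2 and 0 to 919 when a library was left out, and for the Ang II main effect from 2662 to 4347 with T cell marker scaling, with 1010 to 3583 when a library was left out. Genotype calls went from 0 to 1 with DESeq2. Of the members' log2 fold changes under an alternative, 1076 kept direction and side of the threshold, 24 no longer passed, 9 newly passed and 91, none of them called, had the other direction. The causes were not tested.

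Replicate numbers were shared by the groups, but the deviations of same-numbered libraries correlated at -0.62 to 0.25, so the numbers were not taken to pair mice, and the block results above describe only a shared number. With 3 mice per group, and with Gzmm at 47 to 227 counts, the printed intervals give the precision of each log2 fold change. Nothing in the labels tells whether mice shared a litter or a day.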
